A study of Rattus norvegicus with 25 samples.

Results

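Myo7a, Plekhg6 and Stxbp2 are 3 protein-coding genes of 34322 in a count table of rat hippocampal RNA, taken because each was higher in all 20 libraries from rats with controlled cortical impact (CCI, a piston blow to the exposed cortex) than in all 5 libraries from sham-operated rats. They were chosen by their measured levels in injured against sham libraries, so that contrast is described here without a test. Of the 21064 genes with enough counts to be tested, 9 (0.0427%) were higher without overlap on the same scale, and these 3 were described out of the 9. All 3 passed the filter on low counts.

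All 25 libraries came from the hippocampus of male Sprague-Dawley rats of 6 to 7 weeks, as polyA RNA, in 5 groups of 5. Vehicle-sham rats had sham surgery and vehicle. The other 4 groups had CCI, with vehicle (Vehicle-CCI), thymus (TD-CCI), thymus cytosolic factor (TCF-CCI) or thymus nuclear factor (TNF-CCI). Here TNF names the thymus fraction and not the cytokine. No sham group received a supplement, so the supplements can be compared only within injured rats. Whether the 25 libraries are from as many rats is not in the labels, and p-values measure only the spread between libraries, which may be technical. Doses, the brain side and the interval from injury to sampling are not given in the sources used here.

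Depth was 27.3 to 44.9 M counts per library (M, 1e6). Mitochondrial ribosomal RNA took 2.18 to 25.63% of the counts in sham libraries, highest in Vehicle-sham 2 and next in Vehicle-sham 3 at 17.26%, against 2.95 to 10.9% in injured ones. Within the injured, TNF-CCI 2 had 10.9% and the other TNF-CCI libraries 2.95 to 4.17%, against 5.56 to 9.89% in the other groups. Genes of hippocampal neurons were present in all 25 libraries: Prox1, of dentate granule cells, ranged from 8.31 to 38.6 CPM, and Wfs1, of CA1 pyramidal cells, from 12.9 to 123 CPM. These genes were chosen after their values were seen. The summed thalamus markers reached 368 CPM in TD-CCI 4 against at most 130 CPM elsewhere, and the summed choroid plexus markers reached 4560 CPM in Vehicle-CCI 3, against at most 892 CPM in other libraries.

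Myo7a encodes myosin VIIa, an unconventional myosin that moves along or tethers actin. It is best known in the hair cells of the inner ear and in the retinal pigment epithelium, where its loss causes Usher syndrome. Plekhg6 encodes a guanine nucleotide exchange factor of the PLEKHG family, which switches on small GTPases that control actin and non-muscle myosin. Stxbp2 encodes Munc18-2, a partner of syntaxins in membrane fusion, needed for granule release by cytotoxic lymphocytes, mast cells and platelets. The 3 genes are not members of 1 pathway.

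On mRatBN7.2, the build of the deposited positions, Myo7a spans chr1:152342611-152414171 on the minus strand with 12102 bases of exons. Plekhg6 spans chr4:158163443-158182628 on the minus strand with 4247 exon bases. Stxbp2 spans chr12:1689364-1701145 on the plus strand with 2977 exon bases. Promoter windows of 250 bases before the start site were taken from RefSeq on another build, GRCr8, for Myo7a and Stxbp2 (2 of the 3 genes; Plekhg6 was not matched). They were searched on both strands for an AP-1 site (TGANTCA), a GC box (GGGCGG), the E-box of lysosomal genes (CACGTG), an ETS core (GGAAGT) and a TATA box (TATAAA). None of these letters stood in the Myo7a window, chr1:161818578-161818827, which lies within the span of the gene. The Stxbp2 window held 1 ETS core, starting 149 bases before the start site, and 1 CACGTG, starting 67 bases before it. The stretch that carries both, before the first annotated base of the gene, is shown 5′ to 3′ with the matches in capitals, on the plus strand at chr12:6487076-6487264:
Stxbp2: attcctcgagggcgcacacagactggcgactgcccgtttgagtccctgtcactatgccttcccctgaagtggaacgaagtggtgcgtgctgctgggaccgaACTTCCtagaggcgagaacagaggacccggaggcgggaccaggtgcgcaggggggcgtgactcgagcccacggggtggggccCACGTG

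The letters CACGTG stood in 5.59% of 33469 promoters of the same length and the ETS core in 19.2%. The window of Stxbp2 had 67.2% G and C, above 87.9% of promoters, and that of Myo7a had 54.8%, above 60.8%, with a median of 51.2% over all. A match is a description of letters and not a measured site.

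Myo7a, the myosin motor, was the most changeable of the genes. Levels are in CPM, counts per 1e6 counts after TMM scaling, which corrects library totals for composition. The Vehicle-sham libraries 1 to 5 had 4.27, 1.25, 2.97, 3.52 and 4.45 CPM. The Vehicle-CCI libraries had 15.1, 14.7, 5.50, 4.47 and 10.4 CPM. Within that injured group, libraries 3 and 4 lay near the sham values and libraries 1 and 2 were about 3 times as high. The TD-CCI libraries had 13.9, 8.83, 10.2, 4.67 and 15.5 CPM, and the TCF-CCI libraries had 11.8, 6.77, 13.6, 7.84 and 5.35 CPM. The TNF-CCI libraries had 18.9, 7.86, 13.4, 6.96 and 20.9 CPM, which include the 2 highest values of all. Vehicle-CCI, TD-CCI and TCF-CCI thus mixed libraries close to the sham range with libraries far above it. The lowest TNF-CCI library, at 6.96 CPM, stood clear of the sham maximum of 4.45. The 4 injured groups overlapped one another.

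The Myo7a mean was 3.29 ± 1.29 CPM in sham libraries (SD, n = 5) and 10.8 ± 4.79 CPM over the injured ones (SD, n = 20). By group it was highest in TNF-CCI at 13.6 ± 6.29 CPM, then TD-CCI at 10.6 ± 4.28, Vehicle-CCI at 10.0 ± 4.97 and TCF-CCI at 9.06 ± 3.48 (SD, n = 5 each). Neighbours in that order differed by less than their SD, apart from the step down to sham. The log2 fold change of the 4 CCI groups' mean over sham was 1.69 ± 0.35 (SE of the edgeR fit). Against sham it was 1.59 for Vehicle-CCI, 1.67 for TD-CCI, 1.45 for TCF-CCI and 2.03 for TNF-CCI, all over the same 5 sham libraries. The authors' deposited table gave 1.62, 1.68, 1.46 and 2.05 for these groups.

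Plekhg6, the exchange factor, was the lowest of the 3 in CPM and had the narrowest sham range. The Vehicle-sham libraries had 0.993, 1.02, 1.13, 1.21 and 1.38 CPM. In Vehicle-CCI it had 3.15, 3.85, 1.58, 1.53 and 2.56 CPM, with the same libraries 3 and 4 low as for Myo7a. The TD-CCI libraries had 2.70, 1.84, 2.76, 1.65 and 3.18 CPM. In TCF-CCI the values were 3.34, 2.70, 2.42, 1.97 and 2.56 CPM, and in TNF-CCI they were 2.44, 2.67, 2.18, 2.28 and 2.37 CPM. The TNF-CCI group, of the largest SD for Myo7a, was the tightest for Plekhg6, with a coefficient of variation of 7.64% against 46.2%. These Plekhg6 values rest on 83 to 115 counts per library, and those of sham on 18 to 47. Counting error alone is at least as large as these spreads, so they cannot be read as tight control of Plekhg6.

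The Plekhg6 mean was 1.15 ± 0.158 CPM in sham (SD, n = 5) and 2.49 ± 0.608 CPM in the injured libraries (SD, n = 20). The injured groups ran from 2.39 ± 0.182 CPM in TNF-CCI through 2.43 ± 0.655 in TD-CCI and 2.54 ± 1.0 in Vehicle-CCI to 2.6 ± 0.499 in TCF-CCI (SD, n = 5 each), and none of these neighbours differed beyond its spread. The log2 fold change of the 4 CCI groups' mean over sham was 1.11 ± 0.21 (SE), and that of single groups ran from 1.05 in TNF-CCI to 1.17 in TCF-CCI. The authors' deposited table gave 1.05 and 1.18 for these 2 groups. Behind the Plekhg6 levels stood 18 to 47 counts per sham library and 46 to 134 per injured library, the fewest of the 3.

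Stxbp2, the syntaxin partner, had 4.37, 1.71, 5.19, 4.34 and 5.39 CPM in Vehicle-sham, where library 2 lay far below the others. In Vehicle-CCI it had 9.45, 15.7, 8.03, 5.44 and 8.96 CPM. The TD-CCI libraries had 11.3, 7.72, 7.46, 5.63 and 9.69 CPM. In TCF-CCI the values were 11.8, 7.56, 7.84, 9.39 and 7.17 CPM, and in TNF-CCI they were 13.3, 7.60, 9.11, 7.89 and 13.6 CPM. Vehicle-CCI 2 was the highest library and Vehicle-CCI 4 the lowest injured one, so that the whole injured range lay inside 1 group.

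The Stxbp2 mean was 4.2 ± 1.47 CPM in sham (SD, n = 5) and 9.23 ± 2.67 CPM in the injured libraries (SD, n = 20). TNF-CCI had 10.3 ± 2.93 CPM, Vehicle-CCI 9.51 ± 3.77, TCF-CCI 8.74 ± 1.88 and TD-CCI 8.37 ± 2.2 (SD, n = 5 each), and neighbours among these injured groups differed by less than their SD. The log2 fold change of the 4 CCI groups' mean over sham was 1.12 ± 0.24 (SE), and it ran from 0.98 in TD-CCI to 1.29 in TNF-CCI. The authors' deposited table gave the same 0.98 and 1.29. Per kilobase of exon, Stxbp2 was the most abundant of the 3 transcripts, at 1.41 CPM per kb in sham and 3.1 in injured libraries. On that scale Myo7a went from 0.272 to 0.895 and Plekhg6 from 0.27 to 0.586 CPM per kb. In bulk tissue, more cells of a type and more RNA per cell cannot be told apart.

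**Figure D1:**
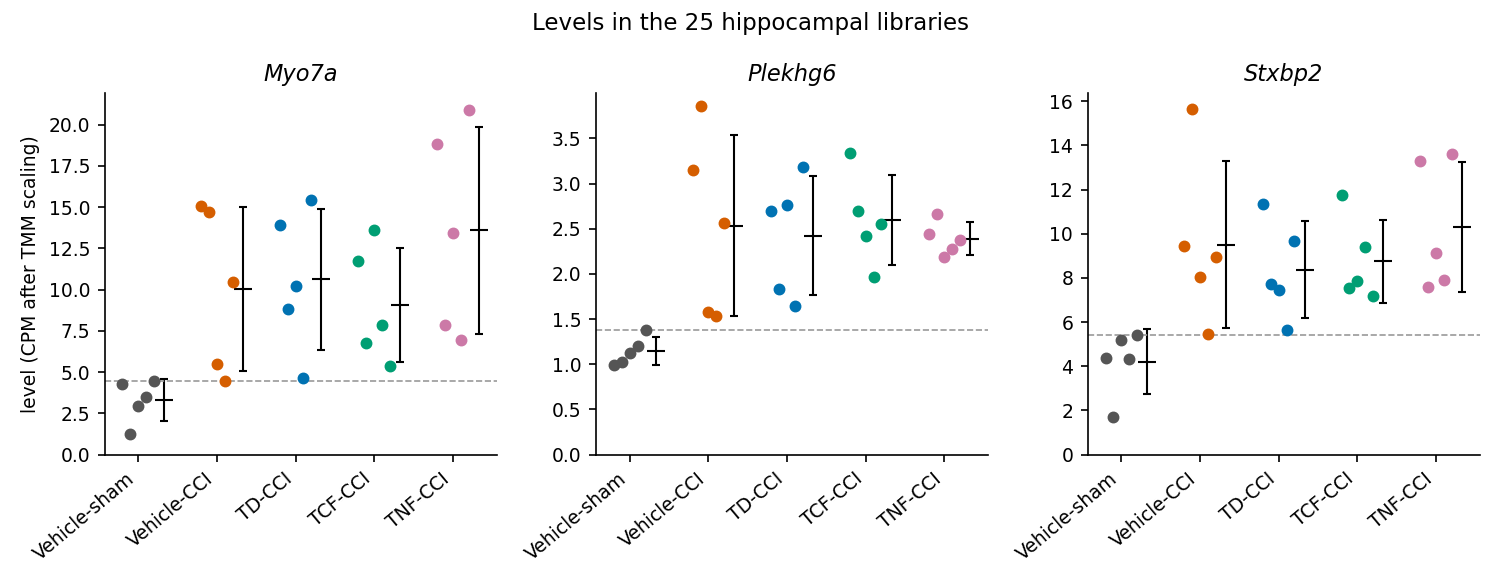
Level (CPM after TMM scaling) of each gene in the 25 libraries, 1 point per library in replicate order within each group, with mean and SD (n = 5) in black and a dashed line at the highest sham library. All 20 injured libraries lie above the line, with Vehicle-CCI 4 almost touching it for Myo7a (4.47 against 4.45 CPM) and Stxbp2 (5.44 against 5.39 CPM).

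The separation of injured from sham libraries was thin. For all 3 genes the lowest injured library was Vehicle-CCI 4 and the highest sham library Vehicle-sham 5. The ratio of the first to the second was 1.11 for Plekhg6, 1.01 for Stxbp2 and 1.0 for Myo7a. The Myo7a values in these 2 libraries rest on 134 and 151 counts, with exact 95% Poisson intervals of 3.75 to 5.29 and 3.77 to 5.22 CPM. For Stxbp2 the intervals were 4.63 to 6.34 and 4.64 to 6.23 CPM, and for Plekhg6 1.12 to 2.05 and 1.02 to 1.84 CPM. They overlap for each gene, and they cover counting error only, since PCR copies were not marked by molecular identifiers. Just outside the rule, at a mean of at least 1 CPM, were Nat8f1, Unc93b1 and Cmtm7, with ratios of 0.996, 0.994 and 0.988. The largest ratio inside it was 1.15, for Sema3b.

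The lack of overlap also depended on how libraries were scaled. With the size factors of DESeq2 the ratios were 1.02 for Myo7a, 1.13 for Plekhg6 and 1.03 for Stxbp2. As CPM of the plain library total they were 0.891, 0.983 and 0.894, so the groups overlapped: 18, 19 and 18 of 20 injured libraries then exceeded all sham libraries. With the mitochondrial genes taken out of the total, Plekhg6 stayed apart at 1.05 while Myo7a (0.943) and Stxbp2 (0.954) overlapped. On the library total, 22 genes (0.104%) were higher without overlap, none of the 3 among them. Without Vehicle-sham 2, the library richest in mitochondrial rRNA, the fold changes over sham were 1.52 for Myo7a, 1.10 for Plekhg6 and 0.96 for Stxbp2 on the log2 scale. Without Vehicle-sham 2 and 3 they were 1.41, 1.07 and 0.98.

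**Figure D2:**
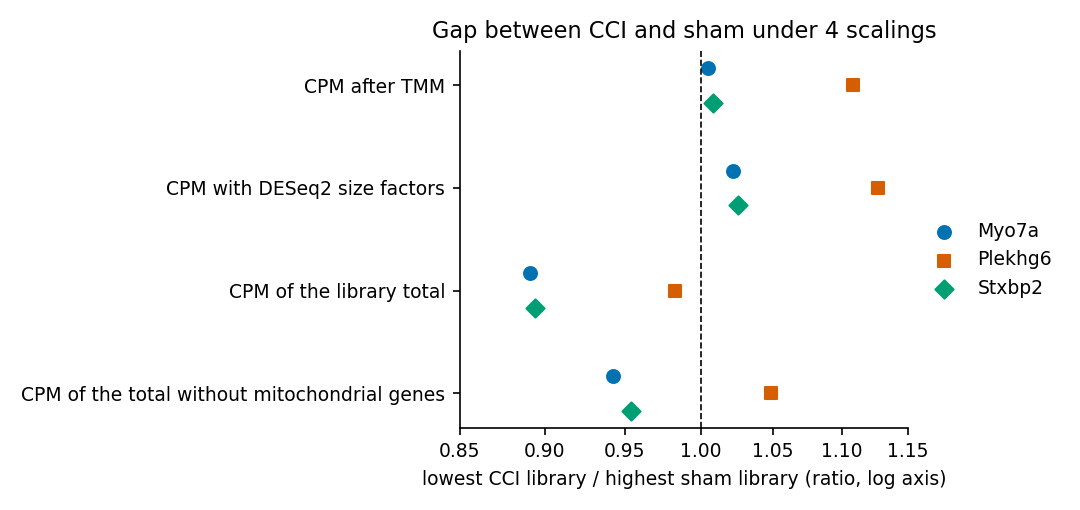
Lowest injured library over highest sham library (ratio, log axis) for the 3 genes under 4 scalings, with a dashed line at 1 where the groups meet. Points to the right of the line are without overlap: all 3 genes under TMM and DESeq2 scaling, Plekhg6 alone when mitochondrial genes leave the total (1.05), and none on the plain library total.

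Whether a thymus supplement changed these genes in injured rats was tested in 6 comparisons between the 4 injured groups, with edgeR's quasi-likelihood test and Benjamini-Hochberg adjustment over 21064 genes. None of the 3 genes was called in any of them. No gene of the table was (0.0% in each comparison), with 304 to 1079 genes at an unadjusted p under 0.05, and DESeq2 called 0 to 7. The largest Myo7a difference, TNF-CCI over TCF-CCI, was 0.59 ± 0.39 on the log2 scale (SE), with a 95% interval from -0.21 to 1.38 and an edgeR adjusted p of 0.985. Against Vehicle-CCI, Myo7a differed by 0.08 in TD-CCI (interval -0.71 to 0.87), by -0.15 in TCF-CCI (-0.94 to 0.65) and by 0.44 in TNF-CCI (-0.35 to 1.23).

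Plekhg6 gave the closest bounds. Its difference from Vehicle-CCI was -0.07 in TD-CCI (95% interval -0.55 to 0.42), 0.03 in TCF-CCI (-0.45 to 0.52) and -0.09 in TNF-CCI (-0.57 to 0.40), on the log2 scale. For Stxbp2 the same differences were -0.18 (-0.75 to 0.38), -0.12 (-0.69 to 0.44) and 0.12 (-0.45 to 0.68). The widest Stxbp2 difference was TNF-CCI over TD-CCI at 0.30 ± 0.27 (SE; interval -0.26 to 0.87). In the joint edgeR test of any difference among the 4 injured groups the unadjusted p was 0.472 for Myo7a, 0.95 for Plekhg6 and 0.703 for Stxbp2, and the adjusted p was 1.0 for each. Over all alternatives and comparisons between injured groups, the lowest adjusted p of the 3 genes was 0.491, with limma voom.

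**Figure D3:**
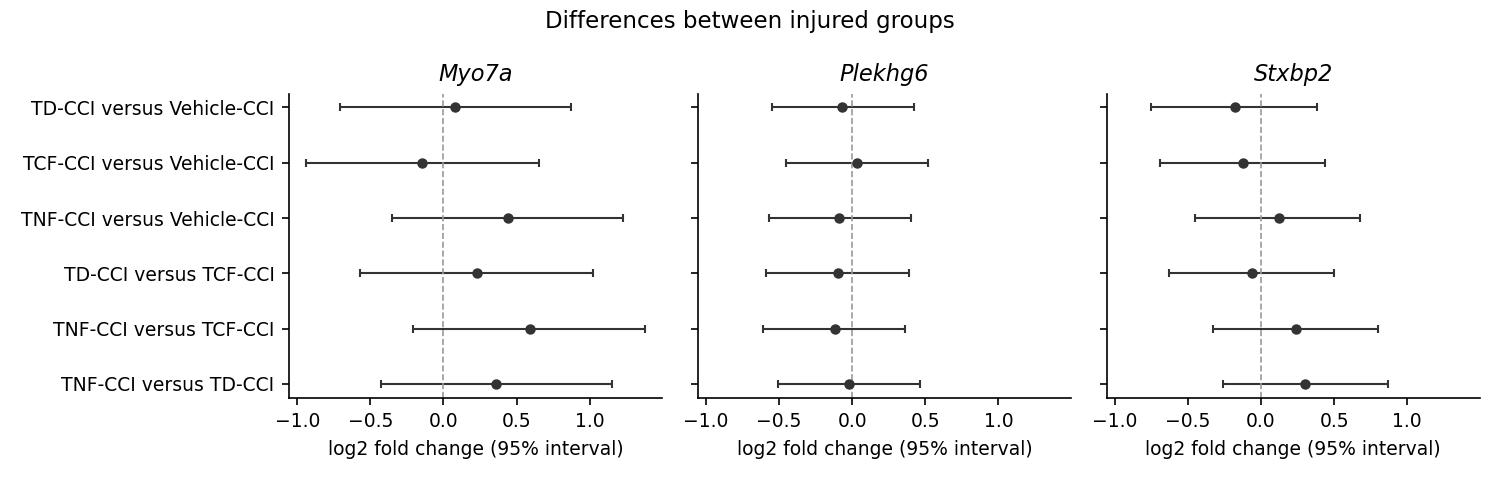
Log2 fold change between injured groups (first-named over second) with 95% intervals from the edgeR fit, 1 panel per gene. All 18 intervals cross 0; those of Myo7a are the widest and those of Plekhg6 the narrowest.

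Among the 20 injured libraries the 3 genes varied together, a pattern that the choice of the genes did not use. The correlations are on log2 CPM with two-sided permutation p-values adjusted over the 3 pairs. These p-values are against no relation at all, not against the relations of other genes. Among 16906 genes ranked by r with Myo7a, Stxbp2 was 71st and Plekhg6 1104th, so varying together is not particular to the 3 genes. Myo7a and Stxbp2 had a Pearson r of 0.82 and a Spearman rho of 0.83 (n = 20, permutation adjusted p = 6e-05 for both, from an unadjusted p of 2e-05). With values centred on each group mean r was 0.83, and without TD-CCI 4 and Vehicle-CCI 4, the libraries farthest from the Myo7a median, it was 0.74 (n = 18, permutation adjusted p = 0.00153).

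The pairs with Plekhg6 were looser. Myo7a and Plekhg6 had r of 0.61 (permutation adjusted p = 0.00475) and rho of 0.54 (adjusted p = 0.022), and within groups r was 0.68. Without TD-CCI 4 and Vehicle-CCI 4 r was 0.44 (permutation adjusted p = 0.10), and with each library left out in turn it was 0.54 to 0.67. Plekhg6 and Stxbp2 had r of 0.62 (permutation adjusted p = 0.00475) and rho of 0.45 (adjusted p = 0.0451), and within groups r was 0.66. Without Vehicle-CCI 2 and 4, the libraries farthest from the Plekhg6 median, r was 0.40 (permutation adjusted p = 0.10). With each library left out in turn it was 0.52 to 0.68. Leaving out the farthest libraries also narrows the range, so it cannot show whether either relation rests on them. Of 6 relations of the genes to the library total and to the mitochondrial rRNA share, none passed (r from -0.38 to 0.18, permutation adjusted p from 0.392 to 0.586). The closest was Plekhg6, lower in libraries of larger total, with rho of -0.53 (permutation p = 0.0185, adjusted p = 0.111) and r of -0.48 without TNF-CCI 1 and 5 (adjusted p = 0.256). Its part in the Plekhg6 values was not tested.

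**Figure D4:**
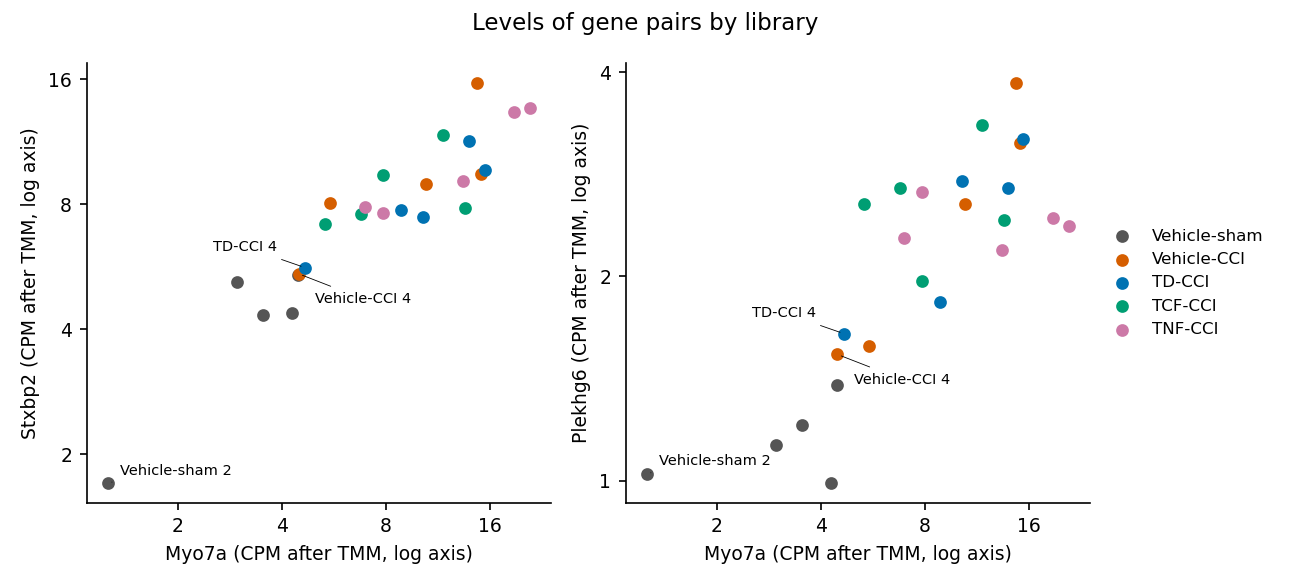
Level of Stxbp2 (left) and Plekhg6 (right) against Myo7a in the 25 libraries (CPM after TMM, log axes), 1 point per library, coloured by group. Within the 20 injured libraries the left panel is the tighter (r of 0.82 against 0.61); Vehicle-CCI 4 and TD-CCI 4 sit next to the sham points in both.

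Genes with the most similar pattern over the 20 injured libraries were sought among 16906 genes with a mean of at least 1 CPM, by Pearson r on log2 CPM. For Myo7a they were Pik3r5 (r of 0.904), a regulatory subunit of phosphoinositide 3-kinase gamma, Akna (0.892), and Cdhr4 (0.887), a cadherin-related gene. For Stxbp2 they were Pik3cd (0.927), the delta catalytic subunit of phosphoinositide 3-kinase found mainly in leukocytes, Nfkb2 (0.916), of the NF-kappa-B family, and Hjurp (0.915), a chaperone of centromeric histone. For Plekhg6 they were Irag2 (0.837), LOC691141 (0.824) and Slc38a7 (0.805), a lysosomal amino acid transporter. Stxbp2 ranked 71st among the genes like Myo7a, and Plekhg6 ranked 1104th for Myo7a and 1095th for Stxbp2, so that many other genes varied with them more closely than they did with each other. In CCI over sham, Pik3r5 (log2 1.00, edgeR adjusted p = 0.0463), Cdhr4 (1.21, 0.0384) and Pik3cd (0.85, 0.0425) rose, as did 2.24% of all tested genes. Akna, Nfkb2, Hjurp, Irag2, LOC691141 and Slc38a7 were not called (edgeR adjusted p from 0.0653 to 0.298). These 3 calls were lost without Vehicle-sham 2 (adjusted p of 0.175, 0.15 and 0.169). Over all tested genes, calls in CCI over sham went from 1248 to 14 without that library. Such a loss is therefore not particular to the genes named here or below.

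Summed levels of cell type markers also moved with the genes in the injured libraries. Of 33 relations between the 3 genes and 11 marker lists, 10 passed by Pearson r (permutation tests, adjusted over the 33). Without the 2 libraries farthest from each list's median, 6 passed. The share of all genes that follow these sums was not computed, so the relations cannot be called particular to these genes. Myo7a followed the summed microglia markers with r of 0.77 (rho 0.79, permutation adjusted p = 0.0028, 0.75 without TCF-CCI 5 and Vehicle-CCI 1). It followed those of motile ependyma with r of 0.76 (rho 0.76, permutation adjusted p = 0.0028, 0.74 without 2 libraries) and of reactive astrocytes with r of 0.71 (rho 0.63, permutation adjusted p = 0.00286, 0.63 without 2 libraries). Stxbp2 followed microglia with r of 0.69 (rho 0.75, permutation adjusted p = 0.00676, 0.76 without 2 libraries).

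Other marker relations passed only with all 20 libraries. Endothelial markers had r of 0.65 with Myo7a (0.57 without the 2 farthest libraries) and 0.58 with Stxbp2 (0.37), and reactive astrocytes 0.55 with Stxbp2 (0.45). Plekhg6 ran against oligodendrocyte (r of -0.62, and -0.36 without 2 libraries), neuron (-0.57 and -0.45) and choroid plexus (-0.55 and -0.46) markers. The permutation adjusted p of these 6, by r, ran from 0.0157 to 0.0399, and from 0.069 to 0.23 without the 2 libraries. By Spearman rho only endothelium with Myo7a passed (rho 0.61, permutation adjusted p = 0.0347). The others did not, with permutation adjusted p from 0.0505 to 0.0921. Vehicle-CCI 4 and TD-CCI 4, the lowest injured libraries for Myo7a and Stxbp2, had the highest summed oligodendrocyte markers, 27400 and 23100 CPM, against at most 18900 CPM elsewhere. Thalamus markers passed only without TD-CCI 4 and Vehicle-CCI 5, with r of 0.70 for Myo7a and 0.82 for Stxbp2. The summed phagocytic list did not pass with any of the 3 genes, but 77.5% of that sum is Apoe, which astrocytes also express, so it says little of Cd68 and other phagocytic genes. Gfap makes up 89.0% of the reactive astrocyte sum and Dnah12 34.9% of the motile ependyma sum, whereas no gene exceeds 21.8% of the microglia sum (Csf1r).

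These lists also differed between injured and sham libraries. In CCI over sham 6 of 11 tested microglia markers, 6 of 12 phagocytic markers, 7 of 10 reactive astrocyte markers and 2 of 12 ependymal markers rose (edgeR adjusted p under 0.05), where 2.24% of all tested genes rose and 5.92% were called in either direction. Without Vehicle-sham 2 these counts were 0, 1, 0 and 0, and without Vehicle-sham 3 the microglia, astrocyte and ependymal counts were 2, 2 and 1. With all libraries the median log2 fold changes of these lists were 0.95, 1.06, 1.45 and 0.16, in the same order. Of the 12 ependymal markers 3 were below 0, as was 1 of the 12 phagocytic ones, so the ependymal list did not move as 1. The summed microglia markers ranged from 210 to 306 CPM in sham and from 238 to 792 CPM in injured libraries. Cd68, of phagocytic cells, had a sham median of 1.32 CPM and injured group medians of 3.27 to 6.34 CPM, and Gfap, of astrocytes, 978 and 2280 to 2780 CPM. Summed markers of lymphocytes and natural killer cells, which depend on Stxbp2 for granule release, were between 0.996 and 4.84 CPM in all libraries, highest in Vehicle-sham 2. Of their 3 tested genes Cd8a rose, from 0.0749 ± 0.0796 to 0.502 ± 0.371 CPM (SD; log2 2.50 ± 0.69 SE, edgeR adjusted p = 0.0376), a call lost without Vehicle-sham 2 (adjusted p = 0.134) and without any of 9 other single libraries, and Cd3e, the largest part of the sum, had 2.47 and 0.835 CPM (log2 -1.65, edgeR adjusted p = 0.114). In the neutrophil and mast cell list, Kit, which neurons also express, made up 92.9% of the sum, and the mean level of each other gene was under 2 CPM in both groups. None of its 7 tested genes passed, and 6 of the 7 had a log2 fold change below 0. No marker was at 0 in all libraries. The part of cell makeup in the levels of the 3 genes was not tested.

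Of 27 tested Usher syndrome genes and other partners of myosin VIIa (28 listed), 0 rose and 3 fell in CCI over sham. Of all tested genes 2.24% rose and 3.68% fell. The list's median log2 fold change was 0.05, against 0.01 over all tested genes. Of those that fell, Calm3 and Calm2, which encode a calcium sensor that binds the neck of the myosin and many other proteins, had the smallest p: Calm3 went from 1190 to 750 CPM (log2 -0.67 ± 0.15 SE, edgeR adjusted p = 0.024), and Calm2 fell by 0.68 ± 0.19 (adjusted p = 0.0373). Without Vehicle-sham 2 no partner passed (adjusted p of 0.141 for Calm3 and 0.173 for Calm2). The closest paralog, Myo7b, had 0.703 ± 0.59 CPM in sham (SD, n = 5) and 0.433 ± 0.158 in injured libraries (SD, n = 20), with log2 -0.63 and an edgeR adjusted p of 0.265; without Vehicle-sham 2 the log2 value was -0.02, and 0.22 without Vehicle-sham 2 and 3.

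Among the other unconventional myosins, 3 of 22 tested rose and 0 fell, with a median of 0.18. Myo1f, a class I myosin of leukocytes, went from 3.44 ± 1.25 to 8.76 ± 4.51 CPM (SD; log2 1.32 ± 0.37 SE, edgeR adjusted p = 0.0376), above all sham libraries in 17 of 20. Myo1c rose by 0.57 ± 0.16 (adjusted p = 0.0388), and Myo1e by 0.78 ± 0.23 (0.0448). All 3 calls were lost without Vehicle-sham 2, with adjusted p of 0.12 to 0.173 and log2 fold changes of 0.41 to 1.17. Over all tested genes, calls went from 1248 to 14 without that library.

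The family of Plekhg6 and its GTPase partners gave 1 gene higher and 1 lower of 26 tested, with a median of 0.05. Rac2, a small GTPase of blood cells, rose from 3.16 ± 0.745 to 7.49 ± 3.66 CPM (SD; log2 1.20 ± 0.29 SE, edgeR adjusted p = 0.0247). Rock2, a kinase that acts on non-muscle myosin, fell by 0.41 ± 0.12 on the log2 scale (adjusted p = 0.0483). Without Vehicle-sham 2 the adjusted p was 0.0759 for Rac2, at a fold change of 1.23, and 0.388 for Rock2. None of the other tested PLEKHG genes passed: Plekhg4 had 2.07 and 3.02 CPM in sham and injured libraries (log2 0.51, edgeR adjusted p = 0.217), Plekhg2 11.6 and 16.1 (0.47, 0.318), Plekhg1 19.4 and 21.1 (0.10, 0.807), Plekhg3 347 and 336 (-0.05, 0.931), and Plekhg5 217 and 203 (-0.10, 0.799).

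The Munc18 family and its syntaxin and SNARE partners had 0 of 27 higher and 2 lower, with a median of -0.05. Vamp7, a vesicle SNARE, went from 116 ± 54.9 to 70.1 ± 12.6 CPM (SD; log2 -0.72 ± 0.16 SE, edgeR adjusted p = 0.0236), and Stxbp6 from 123 ± 13.2 to 82.1 ± 19.4 CPM (-0.58 ± 0.15, 0.0327). Without Vehicle-sham 2 neither passed (adjusted p of 0.201 and 0.0969). Stxbp3, a paralog of Stxbp2, was more abundant per length and differed little, at 21.7 and 21.3 CPM per kb in sham and injured libraries (log2 -0.03, edgeR adjusted p = 0.917). Of 14 tested genes of granule exocytosis in blood cells 0 rose and 0 fell, with a median of 0.06. At an unadjusted edgeR p under 0.05, 3 of these passed (Sytl4, Rab27b and Unc13d), where 24.7% of all tested genes did. DESeq2 called 1 higher and 1 lower.

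**Figure D5:**
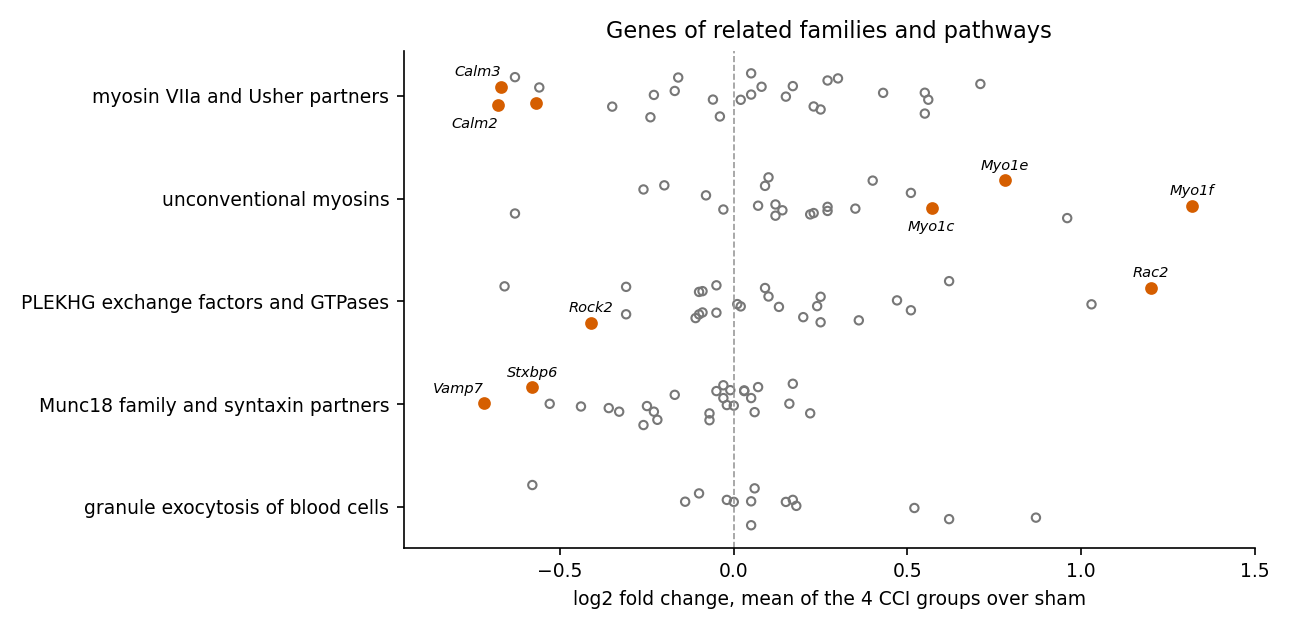
Log2 fold change of the 4 CCI groups' mean over sham for the tested genes of 5 related lists, 1 point per gene, filled where the edgeR adjusted p was under 0.05, with the genes given in the text named. Called genes numbered 3, 3, 2, 2 and 0 by list, where 5.92% of all tested genes were called. All of these calls were lost without Vehicle-sham 2, where calls over all tested genes went from 1248 to 14.

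The neighbours of the genes in the genome were read for shared signal. Plekhg6 shares 150 exon bases with Tnfrsf1a, a receptor of tumour necrosis factor that lies at chr4:158150815-158163592 on the other strand (mRatBN7.2). No source used here gives the strand setting of the counts, so reads in the shared bases cannot be told apart. Tnfrsf1a went from 6.22 ± 2.26 to 12.5 ± 4.87 CPM (SD; log2 0.99 ± 0.27 SE, edgeR adjusted p = 0.0368), above all sham libraries in 14 of 20. Next to it, Scnn1a, a subunit of the epithelial sodium channel 17258 bases from Plekhg6, rose by 1.18 ± 0.30 (adjusted p = 0.0306). Without Vehicle-sham 2 the adjusted p was 0.138 for Tnfrsf1a and 0.11 for Scnn1a. Capn5, a calpain 2080 bases from Myo7a, differed by -0.06 on the log2 scale (edgeR adjusted p = 0.808). Gdpd4 on the other side of Myo7a, LOC120102391 next to Plekhg6, and both neighbours of Stxbp2, LOC103690858 and Retn, had too few counts to be tested.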

How the data were processed

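The deposited table held the authors' raw read counts per gene, whole numbers without normalisation, 1 column per library. Named in the submitters' processing notes, with no version, are featureCounts, STAR, Salmon and DESeq2, and the build is mRatBN7.2. The authors' deposited tables gave log2 fold changes per CCI group over the control, per the file headers, and the authors' p-values, which are not used here. Of 34322 genes, 7 with empty cells were not used. All 25 libraries entered 1 edgeR 4.0.16 fit (R 4.3.3; TMM, filterByExpr, robust quasi-likelihood test) with a mean per group, with Benjamini-Hochberg adjustment over 21064 genes and a threshold of 0.05. Correlations used log2(CPM + 0.5) and 100000 permutations. Scripts were tested on simulated data.

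The members and the gene lists were chosen with earlier results of these data known. Beside the 3 members, the text names the 2 genes of smallest p among those called in each list, the paralogs, the 3 genes most alike to each member, the nearest or overlapping genes and the 3 genes just outside the rule. Some items that the rule or the lists name are not reported here. Cd8a, Cd3e, Kit, Apoe, Csf1r, Dnah12, Myo1e, Sytl4, Rab27b, Unc13d and Sema3b were picked for naming once their values were known. Alternatives were DESeq2 1.42.0, its size factors, limma 3.58.1 voom with sample quality weights, no filter on low counts, a replicate block, a fit of only injured libraries and each library left out in turn. Leaving out Vehicle-sham 2 and 3 together was added after seeing the data.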

Additional observations from a re-analysis of the deposited data

Results flagged for a closer look

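Stxbp2 in Vehicle-sham 2 was 1.71 CPM, apart from the other sham libraries: its gap to the next was 0.713 of the group's range, just above the limit of 0.71 for 5 libraries. Of 15 groups tested (3 genes in 5 groups) this was the only one past the limit. Chance gives about 1 in 20 for each group, so 1 past the limit among 15 is not unusual. The same library had the highest mitochondrial rRNA share, 25.63%, and the lowest Myo7a level, 1.25 CPM. Its part in the Stxbp2 level was not tested.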

How the results depend on the processing

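Leaving out each library gave log2 fold changes over sham of 1.52 to 1.82 for Myo7a, 1.06 to 1.19 for Plekhg6 and 0.96 to 1.23 for Stxbp2, whose direction the choice of the genes fixes. The ratio of the lowest injured to the highest sham library fell below 1 on the library total (0.891, 0.983 and 0.894) and without mitochondrial genes (0.943 for Myo7a and 0.954 for Stxbp2). Leaving out each library gave 1.11 to 1.27 for Plekhg6. At a fixed scaling a lowest-over-highest ratio cannot fall when a library is dropped, so that range is no check of the gap. The count of genes called in CCI over sham, 1248, was 2414 with DESeq2 and 2070 without the filter, ranged from 14 (without Vehicle-sham 2) to 2117 over the libraries left out, and was 0 without Vehicle-sham 2 and 3. Between injured groups, 0 calls became 1 (TNF-CCI versus Vehicle-CCI), 7 (TNF-CCI versus TCF-CCI) and 2 (TNF-CCI versus TD-CCI) with DESeq2, 12 with voom and 1 with only the injured libraries (both TNF-CCI versus TCF-CCI). The joint test gave 7 with DESeq2, 2 without the filter, 1 without Vehicle-sham 2 and 3, and 0 to 1 over the libraries left out; none was a member. Without the 2 farthest libraries r was 0.44 for Myo7a and Plekhg6 and 0.40 for Plekhg6 and Stxbp2, and 6 marker relations passed in place of 10. The cause of these changes was not tested.

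Counts in the 5 lists moved as follows over the libraries left out: Usher partners lower 0 to 3, myosins higher 0 to 3, PLEKHG and GTPase higher 0 to 2 and lower 0 to 2, Munc18 lower 0 to 3, granule exocytosis higher 0 to 1 and lower 0 to 1. Without Vehicle-sham 2 and 3 each of these called counts was 0. DESeq2 gave 2 higher and 2 lower for PLEKHG and GTPase, 4 lower for Munc18, and 1 higher and 1 lower for granule exocytosis. Voom gave 1 Usher partner higher, 1 myosin higher, 3 PLEKHG and GTPase genes higher, 1 Munc18 gene lower and 1 granule gene lower. Without the filter 0 PLEKHG and GTPase genes were lower.

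A replicate block called 1863 genes in CCI over sham and 0 between injured groups, 2 PLEKHG and GTPase genes higher and 2 lower, and 1 granule gene lower. The labels give the numbers no meaning, and the libraries were not taken as paired because deviations correlated by over 0.1 in only 27 of 50 same-numbered pairs. The mean r was 0.113, against -0.0275 for other pairs, and 13 of 25 libraries correlated best with their own number, which is a hint of pairing from the data, not the design. Depth limited Plekhg6 most, at 18 to 134 counts per library.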
